A study of Mus musculus with 6 samples.

Results

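The inhibin, activin and follistatin genes are a group of 9: the subunit genes Inha, Inhba and Inhbb, the receptor genes Acvr1b, Acvr2a and Acvr2b, the coreceptor gene Tgfbr3, and the binding protein genes Fst and Fstl3. They were chosen by gene symbol, taking the probe set of highest mean where a gene had several, and all 9 were found, each with 1 probe set, among 19505 named genes. Whole adrenal glands of female mice aged 2 months were measured on whole-transcript arrays, 1 array per animal. The mutant animals (n = 3) carried Mst1flox/flox, Mst2flox/flox and the Nr5a1-cre transgene, whose driver gene is active in steroid-producing cells such as those of the adrenal cortex. The control animals (n = 3) carried the same floxed alleles of both genes without the transgene. Glands were taken whole, so capsule, medulla, vessels and attached fat contribute RNA in which this Cre is not expected to act.

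Activins are pairs of beta subunits, and inhibins pair the alpha subunit, encoded by Inha, with a beta subunit. Activins bind a type II receptor, which recruits and activates a type I receptor, which phosphorylates SMAD2 and SMAD3. Inhibin binds the type II receptors together with betaglycan, the product of Tgfbr3, and so competes with activin, while follistatin and follistatin-like 3 bind activins outside the cell. The adrenal cortex makes inhibin alpha, and mice without Inha form adrenocortical tumours after removal of the gonads.

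Every mutant had a higher signal than every control for 2 of the 9 genes, as for 8% of all 22206 probe sets. Neither of the 2 genes passed the test over all probe sets. Fstl3, the activin-binding follistatin-like protein, was measured 2.50-fold above control (95% interval 1.86 to 3.37) and missed the threshold of 0.05 narrowly (limma adjusted p = 0.0545). Inha was measured 1.50-fold above control (95% interval 1.21 to 1.87, limma adjusted p = 0.192). The other members had overlapping groups, from Inhba at a log2 change of 0.50 (SE 0.23) to Inhbb at -0.03 (SE 0.25).

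The windows around the annotated starts of Fstl3 and Inha are shown because these are the members whose groups separated. Both come from RefSeq (GRCm38.p6), run 5′ to 3′ on the plus strand and hold 300 bases each, that of Fstl3 being chr10:79777024-79777323 and that of Inha chr1:75507359-75507658. The window table holds 7 of the 9 genes, without Fst and Tgfbr3. Capitals mark the nuclear receptor half-site AGGTCA and the SMAD box CAGAC on either strand.
Fstl3: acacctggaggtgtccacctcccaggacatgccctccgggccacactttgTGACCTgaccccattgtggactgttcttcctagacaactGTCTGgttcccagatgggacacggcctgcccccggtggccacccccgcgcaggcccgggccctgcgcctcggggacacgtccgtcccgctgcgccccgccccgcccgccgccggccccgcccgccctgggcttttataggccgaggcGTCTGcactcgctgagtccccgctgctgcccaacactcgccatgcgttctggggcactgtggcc
Inha: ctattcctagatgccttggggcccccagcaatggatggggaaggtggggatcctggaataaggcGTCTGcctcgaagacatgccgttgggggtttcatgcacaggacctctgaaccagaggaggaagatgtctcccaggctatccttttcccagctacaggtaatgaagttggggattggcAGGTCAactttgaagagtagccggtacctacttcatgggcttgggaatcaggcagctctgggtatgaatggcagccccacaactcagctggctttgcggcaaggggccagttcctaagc
The Inha window begins 282 bases inside the gene as RefSeq (same build) bounds it, so it does not lie at the outermost start. The same holds for the windows of Inhba (7345 bases inside) and Acvr2b (345 bases inside), which enter the motif counts without being shown.

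Of the 7 windows, 2 held AGGTCA, those of Fstl3 (first base at -200, minus strand) and Inha (at -69, plus strand), against 16.3% of all 32851 windows. Positions count from the start each window was drawn around, which for Inha is not the outermost start. The box CAGAC was in 4 of the 7 (Inha, Acvr2a, Acvr2b and Fstl3), against 49.6% of all windows. The TEAD core GGAATG was in 0 of the 7 and 14.7% of all windows, and the GATA elements AGATAA and TGATAA were likewise in 0 of the 7, against 11.2% and 9.05% of all. Both strands were searched, no match overlapped another in the windows shown, and a match of a few letters is a description of the sequence only.

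**Figure D1:**
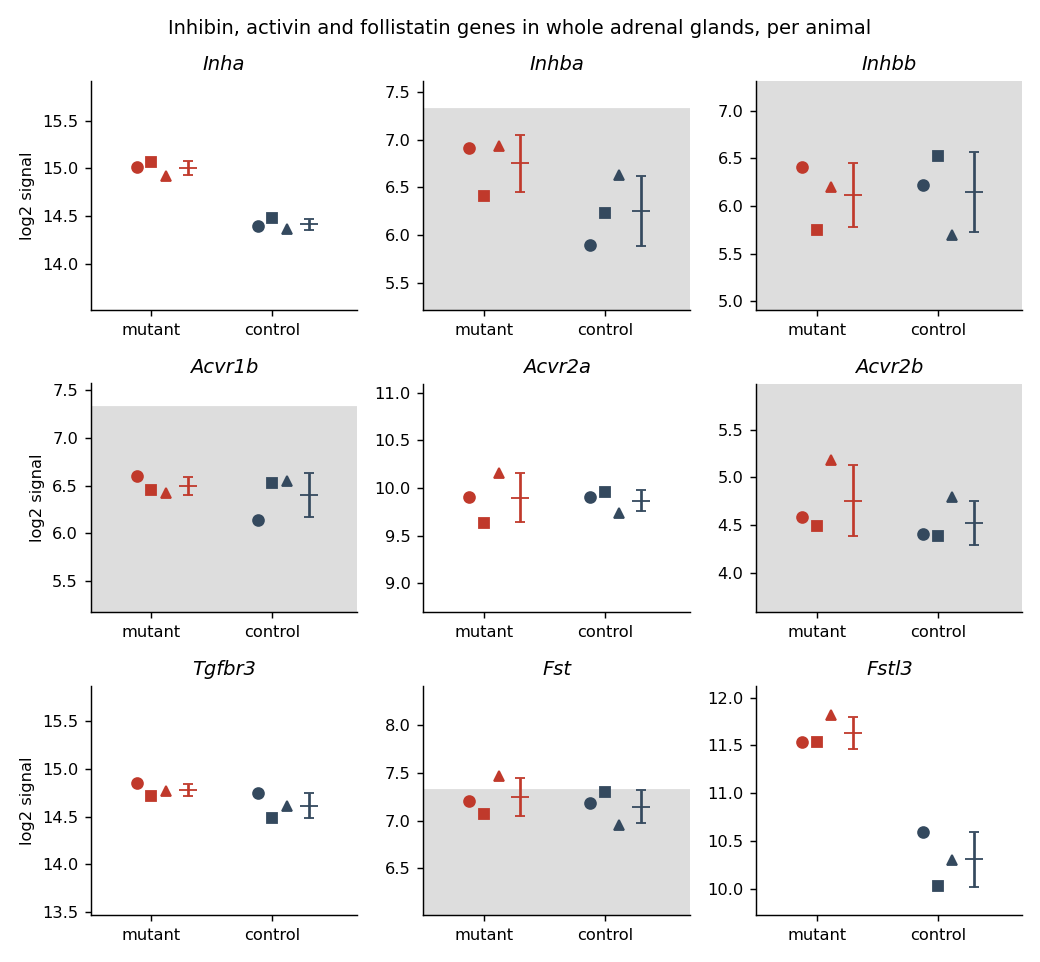
Log2 signal of each of the 9 genes per animal, mutant left and control right, with circles, squares and triangles for animals 1, 2 and 3 and a bar for the mean ± SD (n = 3 each). Every panel spans the same range of log2 units, and grey marks signals at or below 7.32, the highest of the background probe sets; the mutants lie apart from the controls for Inha and Fstl3.

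Among the subunit genes, Inha was bright and closely spaced within each group. Its log2 signal was 15.02, 15.06 and 14.92 in mutants 1 to 3, against 14.39, 14.48 and 14.37 in controls 1 to 3, for means of 15.00 ± 0.07 and 14.41 ± 0.06 (SD, n = 3 each). All 3 mutants lay above all 3 controls, with 0.44 log2 units between the lowest mutant and the highest control. The log2 change was 0.59 (SE 0.14, 95% interval 0.27 to 0.90). Its unadjusted p of 0.00244 in the limma fit placed it at rank 282 of the 22206 probe sets, and 3.19% of them had an upward change at least as large.

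Inhba, which encodes the beta A subunit shared by activin A and inhibin A, was dim. Its log2 signal was 6.91, 6.41 and 6.93 in the mutants and 5.90, 6.23 and 6.63 in the controls. Mutants 1 and 3 lay above all controls and mutant 2 did not, and both means were inside the span of background signals (2.53 to 7.32 over 23 probe sets without a target). The log2 change of 0.50 (SE 0.23, 95% interval -0.03 to 1.03, adjusted p = 0.507 in limma) therefore rests on signals within that span.

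Inhbb, which encodes the beta B subunit, was within the background range too. It measured 6.40, 5.74 and 6.20 in the mutants, against 6.22, 6.53 and 5.69 in the controls, and the groups overlapped fully (log2 change -0.03, SE 0.25, limma adjusted p = 0.98). The remaining beta subunit genes, Inhbc and Inhbe, best known from liver, were also within the background range and had log2 changes of -0.07 (SE 0.15) and 0.08 (SE 0.19). Inha was thus the 1 subunit gene of 5 with a signal above the background range.

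The receptor genes had overlapping groups, and of the 3 only Acvr2a was above the background range. Acvr2a, a type II receptor of activins, measured 9.91, 9.64 and 10.16 in the mutants and 9.91, 9.95 and 9.74 in the controls (log2 change 0.03, SE 0.17, 95% interval -0.37 to 0.43). Mutant 3 was the highest and mutant 2 the lowest of the 6 animals. This interval leaves room for a change of up to 1.35-fold upward and to 0.775 of the control level downward.

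Acvr1b, the type I receptor also known as ALK4, measured 6.61, 6.46 and 6.42 in the mutants and 6.14, 6.53 and 6.55 in the controls (log2 change 0.09, SE 0.17). Acvr2b, the other type II receptor, measured 4.59, 4.50 and 5.18 in the mutants and 4.40, 4.39 and 4.79 in the controls (log2 change 0.23, SE 0.22). Mutant and control means of both were inside the background range, and replicate 3 was the highest of its group for Acvr2b in mutants and controls alike.

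Tgfbr3 was bright in every animal. Its log2 signal was 14.85, 14.72 and 14.77 in the mutants and 14.74, 14.49 and 14.61 in the controls (means 14.78 ± 0.07 and 14.62 ± 0.13, SD, n = 3 each). Mutants 1 and 3 lay above all controls and mutant 2 lay 0.03 below control 1. With a log2 change of 0.16 (SE 0.14, 95% interval -0.17 to 0.50), Tgfbr3 missed the threshold (limma adjusted p = 0.757).

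Of the binding proteins, Fstl3 had the largest log2 change of the 9 genes. It measured 11.53, 11.53 and 11.82 in the mutants, against 10.60, 10.03 and 10.29 in the controls (means 11.63 ± 0.17 and 10.31 ± 0.29, SD, n = 3 each). The lowest mutant exceeded the highest control by 0.94 log2 units. The log2 change was 1.32 (SE 0.19, 95% interval 0.89 to 1.75), rank 36 by unadjusted p (8.83e-05) of 22206 probe sets, and 0.347% of them had an upward change at least as large.

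Fst, which encodes follistatin, had a signal at the upper end of the background range. It measured 7.20, 7.07 and 7.46 in the mutants and 7.18, 7.30 and 6.96 in the controls, with overlapping groups (log2 change 0.10, SE 0.17, 95% interval -0.29 to 0.49, limma adjusted p = 0.883).

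**Figure D2:**
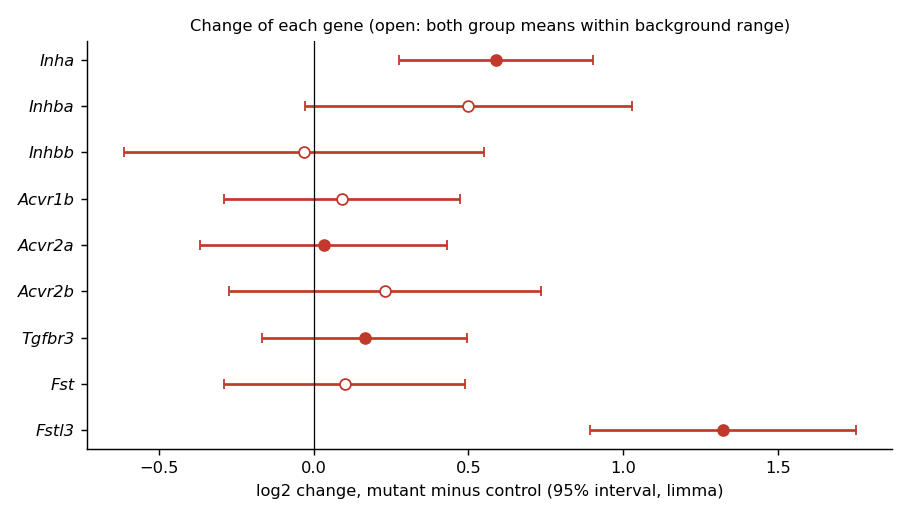
Log2 change of each of the 9 genes, mutant minus control, with its 95% interval from limma; open points mark genes whose mutant and control means were both within the background range. The intervals of Fstl3 (0.89 to 1.75) and Inha (0.27 to 0.90) lie above 0, and the other 7 include 0.

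As a group, 0 of the 9 passed an adjusted p of 0.05 in limma, where 0.0721% of the 22206 probe sets did (0.054% higher and 0.018% lower in mutants, 16 in all). At an unadjusted p under 0.05 there were 2 of 9, both higher in mutants (10.4% of all probe sets in either direction, 5.42% higher and 4.96% lower). Groups did not overlap for the same 2 genes, against 16.4% of all probe sets in either direction and 8% with mutants higher. The mutant mean was above the control mean for 8 of 9, against 48% of all, and for 6 of 9 without mutant 3. The median log2 change was 0.16, against -0.01 over all probe sets. Both group means of 5 of the 9 lay within the background range (Inhba, Inhbb, Acvr1b, Acvr2b and Fst), and 54.3% of all probe sets had a mean signal at or below its upper end.

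**Figure D3:**
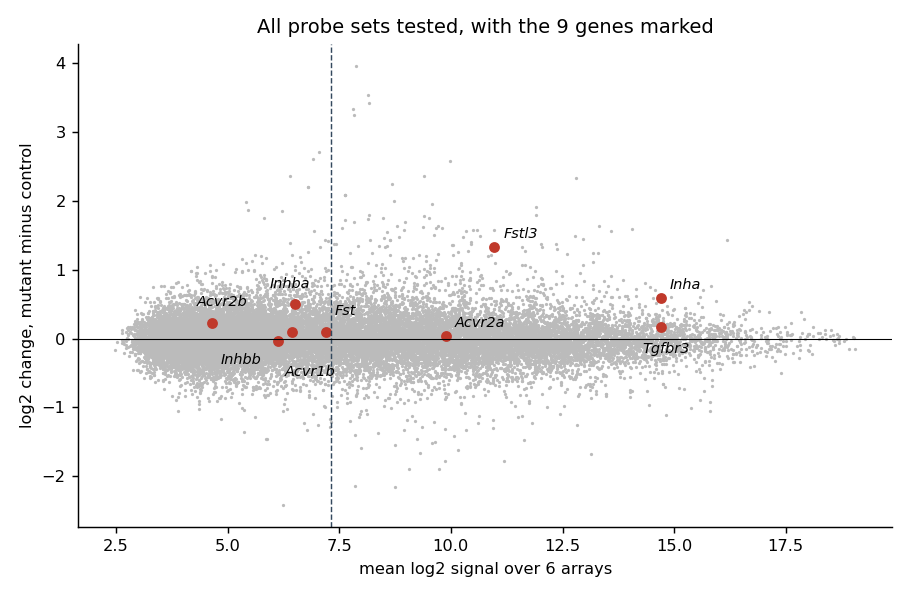
Log2 change, mutant minus control, against the mean log2 signal over the 6 arrays for all 22206 probe sets (grey) and the 9 genes (red); the dashed line is the highest background signal, 7.32. Fstl3 is at 1.32 and Inha at 0.59, and 0.347% and 3.19% of all probe sets had an upward change at least as large. The other 7 had smaller changes, and no ranking among probe sets of like signal was made.

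Other genes of the pathway were described from a list of 36, of which 35 were measured. None passed an adjusted p of 0.05 in limma, 19 had a mutant mean above and 16 below the control mean, and the median log2 change was 0.05 (-0.049, with 16 of 35 above, without control 3, and 0.0031 without mutant 3). At an unadjusted p under 0.05 there were 3, all higher in mutants (5.42% of all probe sets were higher and 4.96% lower): Tgfbr2, the type II receptor of TGF-beta (log2 change 0.58, SE 0.16), Smad3, the transducer shared by activin and TGF-beta (0.48, SE 0.17), and Eng, the endoglin coreceptor of endothelial cells (0.41, SE 0.16). Smad3 measured 12.53, 12.20 and 12.13 in the mutants and 12.01, 11.72 and 11.68 in the controls. Groups did not overlap for 6 of the 35 (16.4% of all probe sets), with mutants higher for Tgfbr2, Smad3, Eng, Smad4 and the ubiquitin ligase gene Smurf1 (8% of all) and lower for Wfikkn1, whose product binds myostatin. Both group means of Wfikkn1 were within the background range, and its log2 change was -0.095 (SE 0.14).

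The other receptors and transducers of activin had intervals that include 0. Acvr1c, the type I receptor ALK7, had a log2 change of -0.40 (SE 0.26), Acvr1, a type I receptor that activin can also bind, 0.29 (SE 0.24), and Smad4, the partner of SMAD2 and SMAD3, 0.33 (SE 0.16). Smad2 was at 0.08 (SE 0.18), and Bambi, a decoy receptor without kinase activity, at 0.38 (SE 0.18) within the background range. Fstl1, related to follistatin by name and domain, was at 0.0066 (SE 0.19).

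Genes known to answer SMAD2/3 signalling had a mutant mean above the control mean in 8 cases and below it in 6. Of 14 measured of a list of 16, 0 passed an adjusted p of 0.05 in limma, 3 were higher and 1 lower in mutants at an unadjusted p under 0.05 (5.42% and 4.96% of all probe sets), and the median log2 change was 0.21 (0.13 without mutant 3). List means were 9.37 to 9.46 in mutants and 9.20 to 9.33 in controls, without overlap. An exact two-sided permutation test gave 0.1, the smallest p it allows with 3 animals against 3, so it could not reach 0.05. The list was chosen with earlier results of these data known, and 5 of the 14 had both group means within the background range. No conclusion on SMAD2/3 signalling is drawn from the list mean. The same test also gave 0.1 for the gonadal, endothelial, smooth muscle and macrophage lists described below. It gave 0.2 to 0.6 for the remaining lists of pathway, regulator and cell type genes. The 3 genes higher at an unadjusted p under 0.05 were Snai2, a transcription factor of mesenchymal cells (log2 change 0.58, SE 0.17), Ltbp2, a latent TGF-beta binding protein relative (0.63, SE 0.19), and Fshb, the pituitary gene for the beta subunit of follicle-stimulating hormone (0.51, SE 0.15). Both group means of Ltbp2 and Fshb were inside the background range. The 1 lower was Pmepa1, an inhibitor of SMAD signalling that SMADs induce, which measured 10.96, 10.64 and 10.79 in the mutants and 11.10, 11.19 and 11.38 in the controls (log2 change -0.43, SE 0.16). Smad7, the inhibitory SMAD, was at -0.07 (SE 0.20), within the background range.

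Regulators of inhibin subunit transcription were given by a list of 14, of which 13 were measured. None passed an adjusted p of 0.05 in limma, and at an unadjusted p under 0.05 there were 4 higher and 1 lower (5.42% and 4.96% of all probe sets). Nr0b1, a nuclear receptor that opposes NR5A1, measured 9.90, 9.82 and 9.32 in the mutants and 11.03, 11.08 and 10.92 in the controls (log2 change -1.33, limma adjusted p = 0.0529). Gata4, a transcription factor that activates Inha in gonadal cells, measured 8.03, 8.28 and 7.37 in the mutants and 6.75, 6.46 and 6.19 in the controls (log2 change 1.43, limma adjusted p = 0.0999), with all controls within the background range. Nr5a1, which also activates Inha, had a log2 change of -0.11 (SE 0.14), and Gata6, the GATA factor of the adrenal cortex, -0.22 (SE 0.18). Foxl2 and Esr2, of ovarian granulosa cells, were within the background range with log2 changes of 0.77 (SE 0.24) and 0.98 (SE 0.30), and Creb1, a mediator of cyclic AMP signals, was at 0.35 (SE 0.15).

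**Figure D4:**
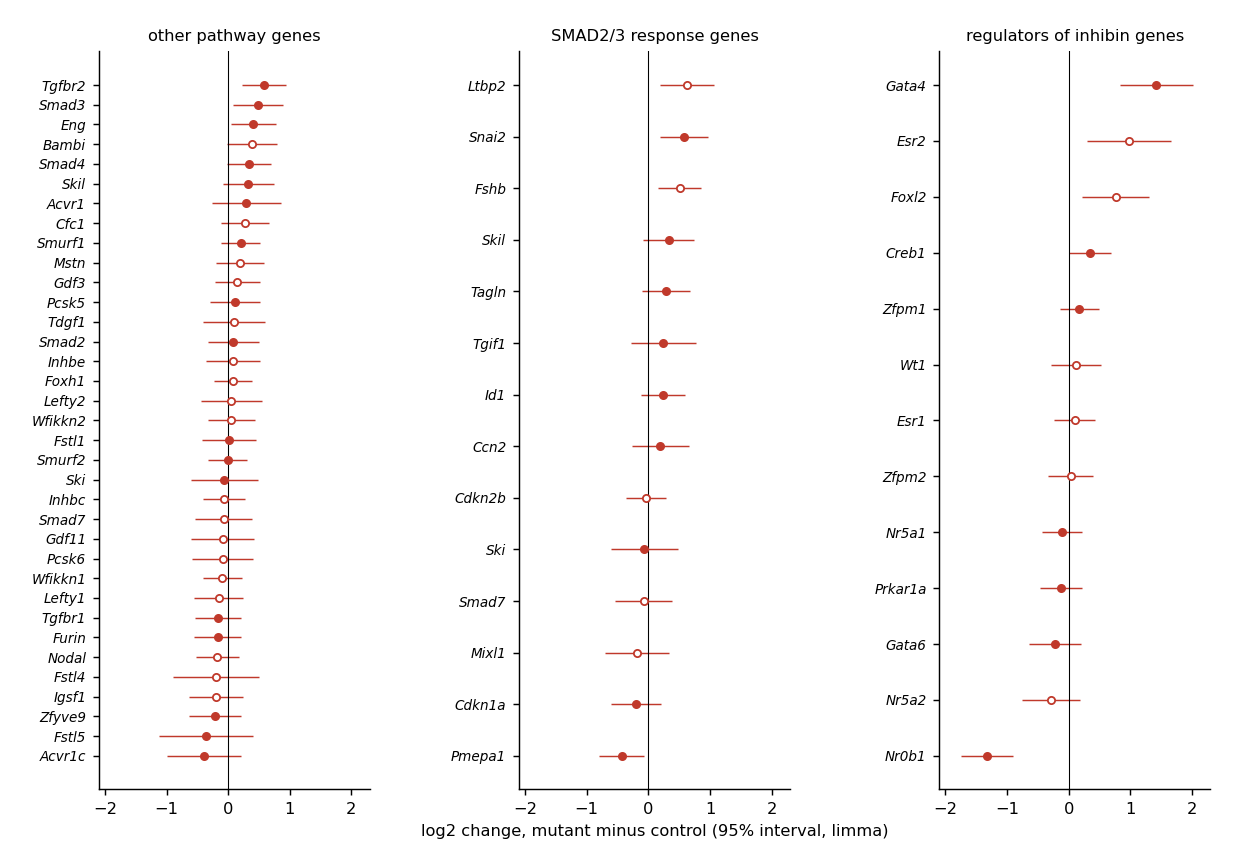
Log2 change, mutant minus control, with 95% intervals from limma, for 35 other pathway genes, 14 genes known to answer SMAD2/3 and 13 regulators of inhibin genes; open points mark genes within the background range in both groups. Gata4 (1.43) and Nr0b1 (-1.33) lie farthest from 0, and most other intervals include 0.

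The 4 named genes whose signals followed Inha most closely, among 10044 named probe sets above the median level, were Bcat1 (r = 0.993), Ajuba (0.992), Sdc4 (0.992) and Scrn1 (0.991). Those closest to Fstl3 were Pla1a (0.995), Slc44a2 (0.989), Fam107a (0.989) and C1qtnf7 (0.986). Pla1a, a phospholipase A1 specific for phosphatidylserine, measured 12.07, 12.22 and 12.50 in the mutants and 11.14, 10.67 and 11.02 in the controls. These Pearson correlations run over 6 arrays that fall into the 2 genotypes, so a difference between genotypes enters each of them, and 98 probe sets exceeded 0.95 with Inha and 57 with Fstl3.

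Markers of other cell types were measured beside these values. The 11 adrenocortical markers were bright in all animals (list means 17.38 to 17.60 in mutants and 17.59 to 17.63 in controls), 2 of 11 having a mutant mean above the control mean, and the 7 measured chromaffin markers were above background. All 7 had a mutant mean below the control mean (list means 13.46 to 13.63 in mutants and 13.42 to 14.55 in controls, median log2 change -0.33), which became -0.026, with 3 of 7 above, without control 2. Of 9 measured gonadal markers 7 had a higher mutant mean, with list means of 5.02 to 5.27 in mutants and 4.72 to 4.80 in controls, and all but Gata4 were within the background range in both groups, Amh, Fshr, Sox9 and Foxl2 among them.

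Markers of stromal, vascular and immune cells had higher mutant means in most cases, beside Fstl3 and Inha. Fibroblast markers had a higher mutant mean in 9 of 11 (list means 10.88, 10.42 and 9.97 in mutants and 9.88, 9.63 and 10.16 in controls), and mutant 3 lay below control 3. Endothelial markers had a higher mutant mean in 8 of 9 (list means 12.05 to 12.14 in mutants and 11.61 to 11.85 in controls), smooth muscle markers in 6 of 8 (9.10 to 9.44 and 8.66 to 8.95) and macrophage markers in 6 of 6 (9.38 to 9.88 and 9.26 to 9.37). Without mutant 2 the macrophage count was 4 of 6 (median log2 change 0.11, against 0.21 with all animals). The macrophage markers Adgre1 and Cd163 were within the background range in both groups. Adipocyte markers had a higher mutant mean in 11 of 11 (9.13 to 12.35 and 7.86 to 10.92, median log2 change 0.92), and in 4 of 11 without mutant 1 (median -0.071). With the fibroblast list mean as a covariate the log2 change was 1.38 for Fstl3 and 0.58 for Inha (limma adjusted p = 0.396 and 0.645), and the part of the gonadal, chromaffin, endothelial, smooth muscle and macrophage signals was not tested. The fibroblast list mean was itself higher in mutants 1 and 2 than in any control. With 6 arrays that fit therefore cannot fully separate it from genotype. In whole glands, a change in the number of cells of a type and a change in RNA per cell cannot be told apart.

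The kinase gene Stk4, which encodes MST1, had overlapping groups (8.14, 8.36 and 8.46 in mutants, 8.32, 8.66 and 8.94 in controls, log2 change -0.32, SE 0.19), and Stk3 was not analysed here. No source used here places its probes against the floxed exons, so Stk4 does not check the genotype labels. The median log2 signal of an array was 6.76 to 6.83.

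**Figure D5:**
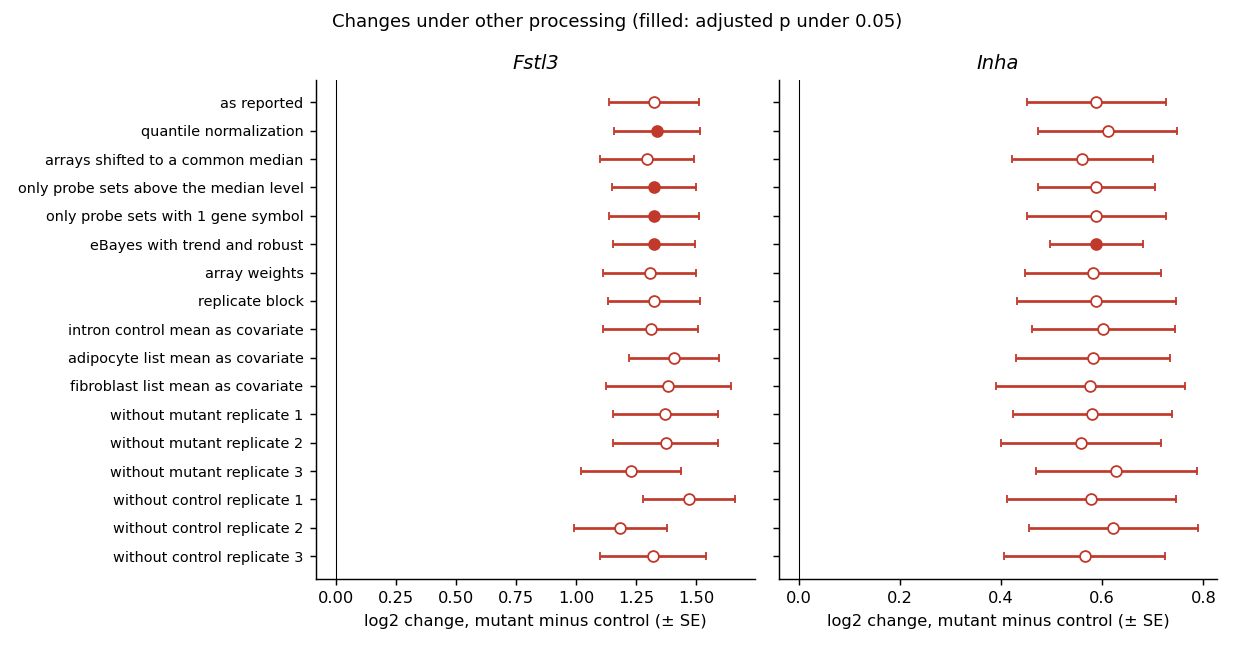
Log2 change of Fstl3 and Inha, mutant minus control, ± SE (limma) as reported and under 16 other settings; filled points have an adjusted p under 0.05. The change stays between 1.18 and 1.47 for Fstl3 and between 0.56 and 0.63 for Inha, whereas the adjusted p crosses the threshold in 4 settings for Fstl3 and 1 for Inha.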

How the data were processed

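RNA of whole adrenal glands was hybridised to whole-transcript arrays, per the labels' protocols. The authors deposited 1 log2 signal for each probe set and animal. Their range shows the log2 scale, and Transcriptome Analysis Console 4.0 is named in the submitters' processing notes. Methods of background treatment, summarisation and scaling were not given in the sources used here. A scaling to equal distributions would remove any change common to most genes. Control probe sets (6640) were left out, which left 22206, and the platform annotation gave 1 symbol to 19572 of these.

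The 6 arrays were fitted in limma 3.58.1 (R 4.3.3; lmFit, eBayes) with genotype as the only term, as mutant minus control. P-values are two-sided and Benjamini-Hochberg adjusted over all probe sets tested, and 0.05 was the threshold. Folds are 2 raised to the log2 change, and intervals and SEs use the moderated variance. The labels name the animals separately, and their number limits precision. Tested on simulated data of 22206 probe sets, the procedure called 51 of 100 probe sets shifted by 1 log2 unit and 92 of 100 shifted by 2, with 5 false calls. The simulated SDs were those of the data shuffled among probe sets. These counts therefore do not apply to probe sets of a given signal level.

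Members, gene lists, promoter motifs and tests were chosen with earlier results of these data known. Named genes were the members, from each pathway list the 4 of smallest unadjusted p, the 4 nearest patterns of Inha and of members with an unadjusted p under 0.01, and Stk4, Nr5a1, Gata4 and Gata6. Further list members (subunits, receptors, SMADs, Creb1, Fstl1, Smurf1 and Wfikkn1) were added to the text with their values known. Alternatives were other scalings, filters, variance models, thresholds, covariates, a replicate block and leaving out each animal. Averaging several probe sets of a gene could not be tried, since each member had 1.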

Additional observations from a re-analysis of the deposited data

How the results depend on the processing

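The log2 changes of Fstl3, Inha, Inhba, Acvr2b and Tgfbr3 kept their sign in every alternative that tested them (Inhba and Acvr2b were too dim for the filter on level). Without single animals Inhba ran from 0.32 (without control 1) to 0.69, Acvr2b from 0.016 (without mutant 3) to 0.36 and Tgfbr3 from 0.10 (without control 2) to 0.23. Fstl3 passed with quantile normalization (1.33, adjusted p = 0.045), with only probe sets above the median level (1.32, adjusted p = 0.0247), with only probe sets of 1 gene symbol (1.32, adjusted p = 0.0473) and with a trended, robust variance prior (1.32, adjusted p = 0.00673). The filters test fewer probe sets and the prior is another variance model. Its adjusted p over all 16 alternatives ran from 0.00673 to 0.396, and its change without single animals from 1.18 to 1.47. Inha passed with the trended, robust prior alone (0.59, adjusted p = 0.0155; range over the alternatives 0.0155 to 0.645) and ran from 0.56 to 0.63 without single animals. The count of members past the threshold was 0 as reported (0.0721% of all probe sets passed) and 0 without any 1 animal (0.0045% to 0.0675%). That count was 1 with quantile normalization (0.171% of all probe sets) or an adjusted threshold of 0.10 (108 of 22206). It was also 1 with only probe sets above the median (0.829% of those tested) or of 1 symbol (0.209% of those tested). With the trended, robust prior (0.788% of all) or an unadjusted threshold (10.4% of all) it was 2.

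Inhbb was at 0.091 with the fibroblast covariate and between -0.26 and 0.16 without single animals. Acvr1b ran from -0.041 to 0.16, Acvr2a from -0.095 to 0.17 and Fst from -0.0092 to 0.19 without single animals, so their signs rest on single animals. The cause was not tested.

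The 16 of 22206 probe sets past the threshold became 38 with quantile normalization and 32 with a shift to a common median. Filters gave 92 of 11103 above the median level and 41 of 19572 with 1 symbol. There were 175 with the trended, robust prior, 48 with array weights, 108 at an adjusted 0.10 and 2306 at an unadjusted 0.05. The count was 8 with the intron covariate, 2 with the adipocyte covariate, 1 with the fibroblast covariate and 1 to 15 without single animals (1 without control 1, control 2 or control 3, and 6 without mutant 2).

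With the replicate block the count of probe sets was 1, and Fstl3 (1.32, adjusted p = 0.144) and Inha (0.59, adjusted p = 0.381) did not pass. Same-numbered animals shared only a number: their deviations correlated at -0.090, 0.082 and -0.070, and 2 of 6 animals correlated best with their own number.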
